A study of Mus musculus with 16 samples.

Results

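The Notch pathway of the vessel wall was followed through 10 genes: the receptors Notch1, Notch2, Notch3 and Notch4, the ligands Jag1 and Dll4, and the target genes Hes1, Hey1, Hey2 and Heyl. They were the rows of the gene count table whose GENCODE symbol was one of these names, 10 of 52636 genes, and all 10 were among the 17125 genes with enough counts to be tested. RNA sequencing had been done on 16 samples of whole descending thoracic aorta from mice, the chest segment of the body's main artery, in 4 groups of 4. These were C57BL/6J mice with hypertension induced by AngII (angiotensin II, a vessel-constricting peptide), C57BL/6J control mice, 129S6/SvEvTac mice with AngII-induced hypertension, and 129S6/SvEvTac control mice. Both are inbred strains, and the labels name no transgene or other allele. The sources used here do not give the dose or duration of AngII, nor the age or sex of the mice. Nothing says that each sample was a separate animal, so p-values reflect the spread among these libraries, which could be technical.

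Notch receptors are cut after binding a ligand on a neighbouring cell, and the freed intracellular part enters the nucleus, joins the DNA-binding protein RBPJ and a Mastermind coactivator, and switches on target genes. In arteries Notch1, Notch4 and Dll4 are known from the endothelium, the inner cell layer, while Notch2, Notch3 and Heyl are known from the smooth muscle of the wall and Jag1 from both. Hes1, Hey1, Hey2 and Heyl encode basic helix-loop-helix repressors. The crushed tissue held all layers of the wall, so fewer cells of a type and less RNA per cell cannot be told apart in any value given here.

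Promoters of 7 of the 10 genes were present in the RefSeq table used (GRCm38.p6), with no entry for Hes1, Hey1 or Heyl. Each was searched, over the 250 bases before the annotated start and on both strands, for the RBPJ core TGGGAA, the E-box CACGTG bound by Hes and Hey factors among others, and the CArG box of serum response factor, a regulator of smooth muscle genes. The Hey2 window alone held a match, an RBPJ core on the opposite strand, 207 to 202 bases before the start. This window is given below with the 2 windows of Notch3 and Dll4. The AngII responses of these 2 genes differed between the strains by calls that are fragile, as described further on. Capitals mark the match, read on the opposite strand as TGGGAA. The windows lie at chr10:30842784-30843033 (minus strand), chr17:32166891-32167140 (minus strand) and chr2:119325534-119325783 (plus strand), in the order Hey2, Notch3, Dll4.
Hey2: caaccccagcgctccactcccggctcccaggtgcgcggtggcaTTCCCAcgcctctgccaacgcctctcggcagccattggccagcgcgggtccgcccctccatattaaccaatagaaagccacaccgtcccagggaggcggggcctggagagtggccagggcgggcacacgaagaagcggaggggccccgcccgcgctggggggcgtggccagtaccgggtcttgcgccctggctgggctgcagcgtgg
Notch3: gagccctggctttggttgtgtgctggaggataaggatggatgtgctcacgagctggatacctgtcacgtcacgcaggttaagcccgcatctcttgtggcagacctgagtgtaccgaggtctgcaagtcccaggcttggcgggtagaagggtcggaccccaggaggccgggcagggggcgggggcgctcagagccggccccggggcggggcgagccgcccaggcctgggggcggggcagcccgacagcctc
Dll4: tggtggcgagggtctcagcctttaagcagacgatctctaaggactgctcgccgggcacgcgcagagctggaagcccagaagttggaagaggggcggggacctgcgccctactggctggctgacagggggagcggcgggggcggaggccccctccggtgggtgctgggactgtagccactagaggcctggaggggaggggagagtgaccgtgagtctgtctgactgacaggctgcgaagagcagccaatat
Over 32851 mouse promoters of the same length, 21.6% held the RBPJ core, 6.02% the E-box and 1.47% the CArG box, so 1 match in 7 windows is a description and no sign of a site.

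Total counts ran from 42116120 to 61381134 in 15 libraries and reached 121573945 in 129S6/SvEvTac AngII replicate 5. All 18 endothelial and all 12 smooth muscle markers of fixed lists were above 0 in every library. The wall's composition signals moved with AngII in C57BL/6J. By edgeR's quasi-likelihood test (adjusted p below 0.05), 11 of 12 smooth muscle markers were lower and none higher, 12 of 12 monocyte and macrophage markers and 9 of 10 adipocyte markers were higher, and 6 of 18 endothelial markers were higher and 2 lower. The adipocyte count ran from 6 to 10 when single libraries were left out. It was 6 with C57BL/6J AngII replicate 1 and 129S6/SvEvTac AngII replicate 5 left out together. Over all genes tested, 21.8% were higher and 17.1% lower in C57BL/6J. In 129S6/SvEvTac none of the smooth muscle, macrophage or adipocyte markers passed, and 5 of 18 endothelial markers were higher. In that strain 7.71% of all genes were higher and 4.47% lower. Of 12 fibroblast markers, 6 were higher and 1 lower (Clec3b) in C57BL/6J AngII and 3 were higher in 129S6/SvEvTac AngII. Their summed level was 24630 to 35640 CPM (counts scaled to a common library total) in C57BL/6J AngII against 6721 to 8016 CPM in C57BL/6J control, and 13170 to 23110 CPM in 129S6/SvEvTac AngII against 5738 to 8756 CPM in 129S6/SvEvTac control, without overlap in either strain. These sums weigh abundant genes most and do not show a rise of the whole list. The median log2 fold change of the 12 markers was 0.57 in C57BL/6J and 0.45 in 129S6/SvEvTac. The collagen genes Col1a1 and Col1a2 were called higher in both strains. Cell cycle genes were higher with AngII in both strains, 10 of 10 in each. Of the lists named here, markers at 0 in at least 1 library were the cell cycle gene Bub1 and the muscle markers Myh4, Myh1 and Mb, with Myh4 at 0 in every library. Summed smooth muscle markers were 13630 to 32570 CPM in C57BL/6J AngII against 43240 to 46800 CPM in C57BL/6J control, and 40650 to 50780 CPM in 129S6/SvEvTac AngII against 43110 to 46740 CPM in 129S6/SvEvTac control. Summed endothelial markers were 1559 to 1805 CPM in C57BL/6J AngII against 1635 to 2066 CPM in C57BL/6J control, and 1402 to 3904 CPM in 129S6/SvEvTac AngII against 1198 to 1904 CPM in 129S6/SvEvTac control. Some libraries stood apart: C57BL/6J AngII replicate 1 in summed adipocyte markers (3146 CPM, against 144.5 to 1316 CPM in the other C57BL/6J AngII libraries), 129S6/SvEvTac AngII replicate 5 in skeletal and cardiac muscle markers (434 CPM) and depth, and 129S6/SvEvTac AngII replicate 2 in endothelial markers (3904 CPM). In the muscle markers 129S6/SvEvTac control replicate 3 (244.7 CPM, against 8.99 to 73.7 CPM in the other controls of that strain) and C57BL/6J AngII replicate 1 (180.0 CPM, against 10.03 to 25.4 CPM) were also high. In smooth muscle markers C57BL/6J AngII replicate 3 was at 32570 CPM, against 13630 to 19530 CPM in the other 3 libraries of its group.

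Heyl was the most abundant of the 10 transcripts in every group once counts were divided by exon length. Its level was 28.1 ± 5.06 CPM per kilobase in C57BL/6J AngII and 93.5 ± 6.83 in C57BL/6J control, 59.5 ± 7.48 in 129S6/SvEvTac AngII and 69.0 ± 9.21 in 129S6/SvEvTac control (SD, n = 4 each), and in each group its libraries did not overlap those of the next gene. In C57BL/6J control aortas Notch2 (20.2 CPM per kilobase), Hey2 (15.4), Jag1 (11.6), Notch3 (10.1), Hes1 (8.37), Notch1 (3.02), Notch4 (2.11), Hey1 (1.54) and Dll4 (0.904) came after it. Neighbours in that order overlapped for Notch3 and Hes1, for Notch4 and Hey1, and for Hey1 and Dll4. Notch2 was the most abundant receptor in all 4 groups. In 129S6/SvEvTac control the order was Hey2 (17.1), Notch2 (14.4), Jag1 (13.4), Notch3 (8.92), Hes1 (6.72), Notch1 (2.69), Hey1 (1.263), Notch4 (1.18) and Dll4 (0.986) after Heyl. Neighbours there overlapped for Hey2 and Notch2, Notch2 and Jag1, Notch3 and Hes1, Hey1 and Notch4, and Notch4 and Dll4. With AngII Hes1 followed Notch2 in C57BL/6J at 12.7 ± 3.32 CPM per kilobase and preceded it in 129S6/SvEvTac at 14.8 ± 1.95, overlapping it in both.

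**Figure D1:**
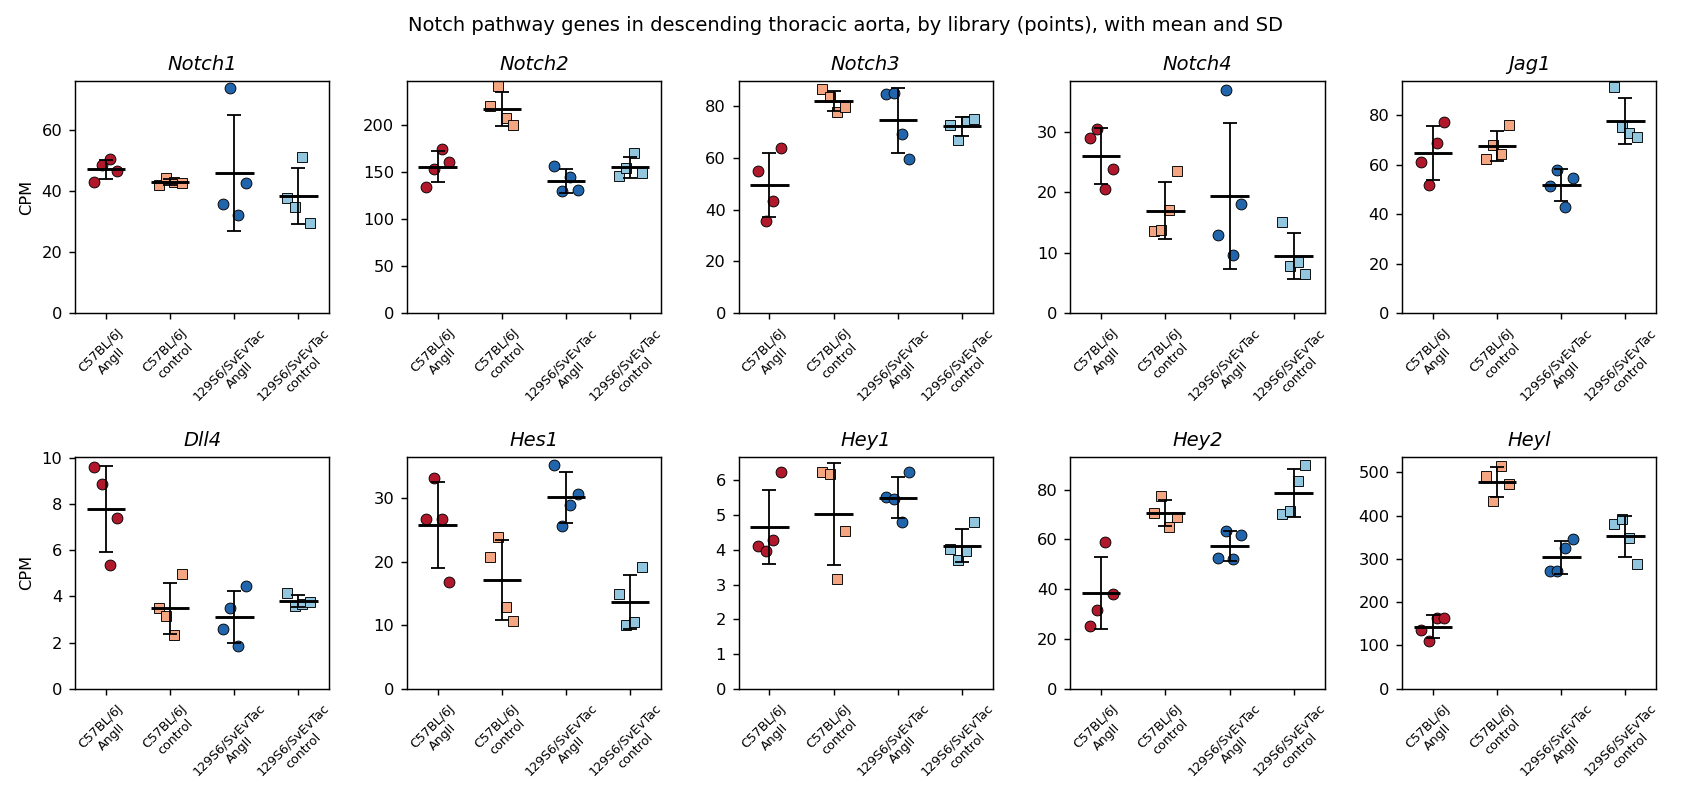
CPM (vertical axes from 0) of the 10 Notch pathway genes in each of the 16 libraries (points), by group, with the mean and SD as bars. The 4 C57BL/6J AngII libraries lie below all other libraries for Heyl, from 110.2 to 164 CPM, and above all others for Dll4, from 5.36 to 9.59 CPM.

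The first question was which Notch genes differed between AngII and control aortas of C57BL/6J. Of the 10 genes 1 was higher, Dll4, and 4 were lower, Notch2, Notch3, Hey2 and Heyl. Over all 17125 genes 21.8% were higher and 17.1% lower in this comparison. The median log2 fold change was -0.09 over the 10 genes and 0.01 over all genes tested. These 5 calls held when any of the 16 libraries was left out, and the 5 genes were also those whose AngII and control libraries did not overlap, as they did not for 35.2% of all genes tested.

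Among the receptors, Notch2 (ENSMUSG00000027878.11, GRCm38 chr3:98013527-98150361) stood at 134.6, 154, 175 and 161 CPM in C57BL/6J AngII, against 220.2, 241, 208 and 199.9 CPM in C57BL/6J control. All 4 AngII libraries were below all 4 controls, a log2 fold change of -0.48 ± 0.09 (SE; edgeR adjusted p = 0.000876). Notch3 (ENSMUSG00000038146.7, chr17:32120820-32166852), the receptor best known from arterial smooth muscle, stood at 55.1, 35.6, 43.3 and 63.8 CPM in C57BL/6J AngII, against 86.5, 83.7, 77.6 and 79.8 CPM in C57BL/6J control. The groups did not overlap and Notch3 fell by 0.73 ± 0.15 on the log2 scale (edgeR adjusted p = 0.00146). Notch1 (ENSMUSG00000026923.15, chr2:26457903-26516663), a receptor of endothelium and many other tissues, was at 43.1, 48.5, 50.6 and 46.6 CPM in C57BL/6J AngII, against 41.9, 44.3, 42.9 and 42.5 CPM in C57BL/6J control. Its groups overlapped and its log2 fold change of 0.14 ± 0.21 did not pass (edgeR adjusted p = 0.643). Notch4 (ENSMUSG00000015468.14, chr17:34564268-34588503), an endothelial receptor, was at 29.0, 30.5, 20.6 and 23.8 CPM in C57BL/6J AngII, against 13.6, 13.7, 17.1 and 23.5 CPM in C57BL/6J control. One control library lay within the AngII range, and the log2 fold change of 0.61 ± 0.36 did not pass (edgeR adjusted p = 0.188). The receptor genes overlap short gene models, 2 on the other strand for Notch1, 1 on the same strand for Notch2 and 1 on the other strand for Notch3, each at no more than 0.982 CPM in any library.

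Of the ligands, Dll4 (ENSMUSG00000027314.6, chr2:119325784-119335962), an arterial endothelial ligand, stood at 9.59, 8.86, 5.36 and 7.39 CPM in C57BL/6J AngII, against 3.49, 3.15, 2.33 and 4.97 CPM in C57BL/6J control. The lowest AngII library lay just above the highest control, and Dll4 rose by 1.16 ± 0.27 on the log2 scale (2.24-fold; edgeR adjusted p = 0.00341). Jag1 (ENSMUSG00000027276.7, chr2:137081456-137116644), a ligand of smooth muscle and endothelium, was at 61.1, 51.8, 68.9 and 77.3 CPM in C57BL/6J AngII, against 62.5, 67.9, 64.5 and 76.2 CPM in C57BL/6J control. Its groups lay over each other, at -0.06 ± 0.13 on the log2 scale (edgeR adjusted p = 0.717). Per kilobase, Jag1 exceeded Dll4 3.87- to 8.50-fold in the C57BL/6J AngII libraries and 10.1- to 18.3-fold in the C57BL/6J control libraries, ranges that do not overlap. Dll4 shares exon bases with 1 gene model on the other strand, which stood at no more than 0.221 CPM in any library.

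Of the targets, Heyl (ENSMUSG00000032744.4, chr4:123233556-123249875) had the largest change of the 10 genes. It stood at 136.6, 110.2, 164 and 164 CPM in C57BL/6J AngII, against 491, 433, 516 and 472 CPM in C57BL/6J control. Every AngII library lay far below every control, and Heyl fell by 1.73 ± 0.14 on the log2 scale (3.33-fold lower; edgeR adjusted p = 9.54e-07). Hey2 (ENSMUSG00000019789.9, chr10:30832359-30842801), a target known for its role in arterial identity, stood at 25.4, 31.5, 58.9 and 38.0 CPM in C57BL/6J AngII, against 70.5, 77.5, 65.1 and 68.9 CPM in C57BL/6J control. Replicate 3 was the AngII library nearest the controls, and Hey2 fell by 0.87 ± 0.19 (edgeR adjusted p = 0.00204). Hes1 (ENSMUSG00000022528.7, chr16:30064384-30067796) was at 26.7, 33.1, 26.7 and 16.7 CPM in C57BL/6J AngII, against 20.8, 23.9, 12.9 and 10.6 CPM in C57BL/6J control. The groups overlapped and its log2 fold change of 0.60 ± 0.27 did not pass (edgeR adjusted p = 0.0909), although it did without C57BL/6J AngII replicate 5 (0.0422) or C57BL/6J control replicate 2 (0.0414). Hey1 (ENSMUSG00000040289.8, chr3:8663359-8667256) stood at 3.96 to 6.23 CPM in C57BL/6J AngII and 3.15 to 6.23 CPM in C57BL/6J control, a log2 fold change of -0.11 ± 0.21 (edgeR adjusted p = 0.704).

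The second question was what AngII changed in 129S6/SvEvTac aortas. Of the 10 genes 1 was higher, Hes1, and 1 lower, Jag1, where 7.71% of all genes tested were higher and 4.47% lower. The median log2 fold change was -0.05 over the 10 genes and 0.0027 over all genes. Both calls held with any 1 of the 16 libraries left out. Hes1 stood at 35.2, 25.7, 28.9 and 30.7 CPM in 129S6/SvEvTac AngII, against 14.97, 10.1, 10.6 and 19.1 CPM in 129S6/SvEvTac control. The groups did not overlap and Hes1 rose by 1.14 ± 0.27 on the log2 scale (2.2-fold; edgeR adjusted p = 0.0127). Jag1 stood at 51.4, 58.0, 42.9 and 54.6 CPM in 129S6/SvEvTac AngII, against 91.5, 75.5, 72.9 and 71.4 CPM in 129S6/SvEvTac control. Every AngII library was below every control, and Jag1 fell by 0.59 ± 0.13 (edgeR adjusted p = 0.00724).

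Heyl, lower in C57BL/6J AngII, was at 272, 272, 326 and 347 CPM in 129S6/SvEvTac AngII, against 381, 393, 349 and 288 CPM in 129S6/SvEvTac control. The groups overlapped, at -0.21 ± 0.13 on the log2 scale (edgeR adjusted p = 0.351). Notch3 was at 84.7, 85.1, 69.2 and 59.4 CPM in 129S6/SvEvTac AngII, against 72.7, 66.9, 74.1 and 74.96 CPM in 129S6/SvEvTac control. AngII libraries lay on both sides of the controls, at 0.05 ± 0.15 on the log2 scale (edgeR adjusted p = 0.892). Dll4 was at 2.59, 3.48, 1.84 and 4.47 CPM in 129S6/SvEvTac AngII, against 4.16, 3.59, 3.67 and 3.77 CPM in 129S6/SvEvTac control, a log2 fold change of -0.29 ± 0.27 (edgeR adjusted p = 0.563). The Jag1 to Dll4 ratio per kilobase was 8.07 to 15.4 in 129S6/SvEvTac AngII and 12.5 to 14.5 in 129S6/SvEvTac control, with the groups overlapping. Hey2 was at 52.5, 63.4, 52.2 and 61.9 CPM in 129S6/SvEvTac AngII, against 70.0, 71.4, 83.6 and 89.9 CPM in 129S6/SvEvTac control. The groups did not overlap, yet the log2 fold change of -0.45 ± 0.19 did not pass over all genes (edgeR adjusted p = 0.142); it passed without C57BL/6J AngII replicate 3 (0.0206), with only this strain's groups fitted (0.0156) and with library size scaling (0.0312). Hey1 likewise did not overlap, at 4.81 to 6.23 CPM in 129S6/SvEvTac AngII and 3.71 to 4.79 CPM in 129S6/SvEvTac control, and did not pass (0.42 ± 0.21; edgeR adjusted p = 0.232).

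Notch4 and Notch1 in this strain depended on 1 library, the one with the most endothelial marker counts. Notch4 was at 12.95, 36.9, 9.64 and 18.1 CPM in 129S6/SvEvTac AngII, against 15.1, 7.79, 8.46 and 6.54 CPM in 129S6/SvEvTac control, with replicate 2 the highest of the AngII libraries. Its log2 fold change of 1.03 ± 0.36 did not pass (edgeR adjusted p = 0.0773) and was 0.51 without that replicate, while leaving out 129S6/SvEvTac AngII replicate 4 or 129S6/SvEvTac control replicate 1 gave adjusted p of 0.0377 to 0.0383. Notch1 was at 35.8, 73.8, 32.1 and 42.7 CPM in 129S6/SvEvTac AngII, against 37.9, 34.7, 51.1 and 29.7 CPM in 129S6/SvEvTac control. Its log2 fold change was 0.26 ± 0.21 (edgeR adjusted p = 0.482) and -0.07 without 129S6/SvEvTac AngII replicate 2. Notch2 was at 130.5 to 157 CPM in 129S6/SvEvTac AngII and 145.8 to 170.2 CPM in 129S6/SvEvTac control, a log2 fold change of -0.14 ± 0.09 (edgeR adjusted p = 0.389).

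The design also asks whether the strains responded differently to AngII. The AngII effect in C57BL/6J minus that in 129S6/SvEvTac passed for 3 of the 10 genes, with Dll4 higher and Notch3 and Heyl lower in C57BL/6J, against 5.34% of all genes higher and 4.62% lower. The median difference was -0.42 over the 10 genes and 0.02 over all genes on the log2 scale. The Heyl effects differed by -1.52 ± 0.19 (edgeR adjusted p = 0.000795), a call that held with any 1 library left out (adjusted p 0.000223 to 0.00278). The Dll4 effects differed by 1.45 ± 0.38 (edgeR adjusted p = 0.0282) and the Notch3 effects by -0.78 ± 0.21 (edgeR adjusted p = 0.033), and both calls were fragile. Dll4 passed in 9 of 16 omissions and was lost, at adjusted p of 0.0501 to 0.062, without C57BL/6J AngII replicate 1, any of C57BL/6J control replicates 1, 2 and 3, 129S6/SvEvTac AngII replicate 1, or 129S6/SvEvTac control replicates 1 or 3. Notch3 passed in 5 of 16 omissions, those of C57BL/6J AngII replicates 1, 3 and 5, C57BL/6J control replicate 5 and 129S6/SvEvTac AngII replicate 5, and had adjusted p of 0.0507 to 0.0821 in the other 11. Jag1, called in 129S6/SvEvTac alone, had a difference of 0.52 ± 0.18 that did not pass (edgeR adjusted p = 0.0752; 0.0315 without C57BL/6J AngII replicate 2). Hes1, also called in 129S6/SvEvTac alone, had a difference of -0.54 ± 0.38 (edgeR adjusted p = 0.408), so its effects were not shown to differ. The same holds for Notch2 (-0.34 ± 0.13; edgeR adjusted p = 0.116) and Hey2 (-0.42 ± 0.27; edgeR adjusted p = 0.358; 0.024 without C57BL/6J AngII replicate 3). Hey1 (-0.53 ± 0.30; edgeR adjusted p = 0.287), Notch4 (-0.42 ± 0.50; 0.659) and Notch1 (-0.13 ± 0.30; 0.84) also did not pass.

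**Figure D2:**
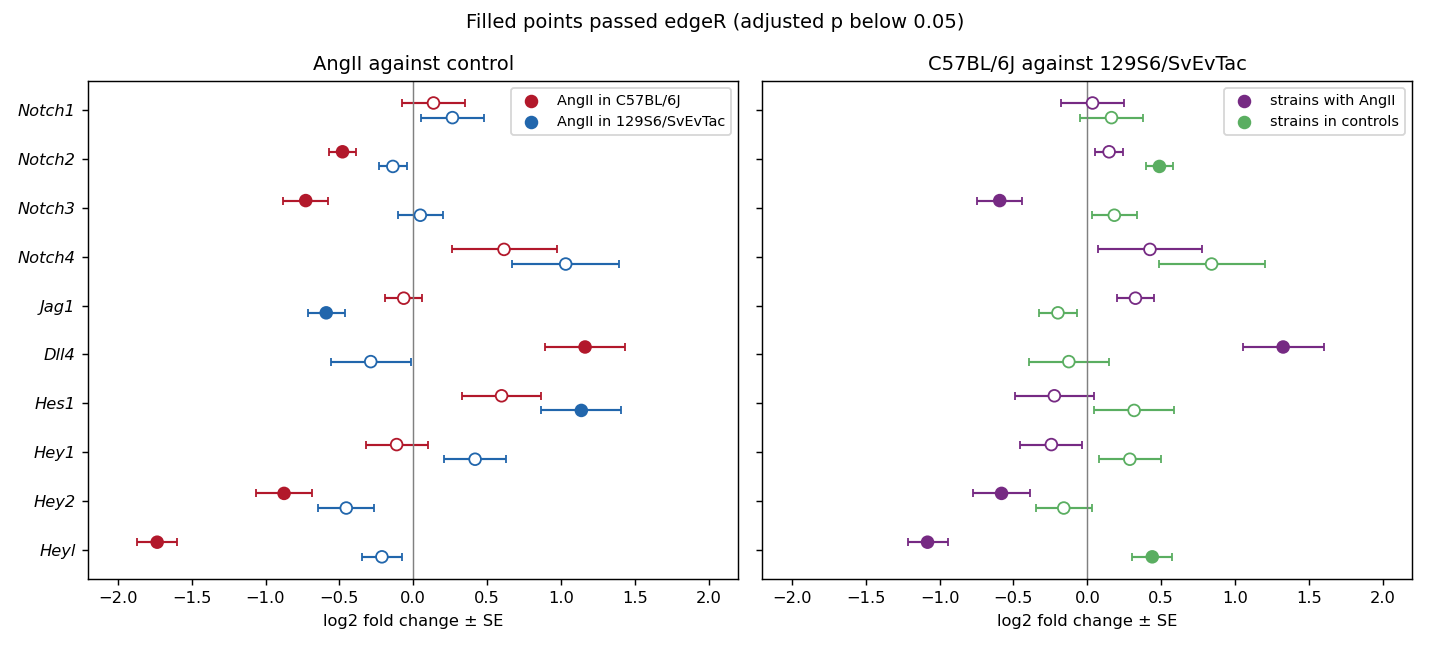
Log2 fold changes with SE of the 10 genes for AngII against control in each strain (left) and for C57BL/6J against 129S6/SvEvTac with AngII and in controls (right); filled points passed edgeR's test at adjusted p below 0.05. Heyl lies at -1.73 in C57BL/6J and -0.21 in 129S6/SvEvTac, and Dll4 at 1.16 and -0.29.

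In control aortas the strains differed in 2 of the 10 genes, with C57BL/6J higher in each, where 5.35% of all genes were higher and 5.06% lower. Reads of both strains were aligned to GRCm38, the C57BL/6J reference. Reads of 129S6/SvEvTac with variants may thus be lost or misplaced, which was not tested for any strain difference given here. The median log2 fold change of C57BL/6J control over 129S6/SvEvTac control was 0.23 over the 10 genes and -0.001 over all genes. Notch2 averaged 217 ± 18.04 CPM in C57BL/6J control and 155 ± 10.8 CPM in 129S6/SvEvTac control (SD, n = 4 each), 1.40-fold higher in C57BL/6J with no overlap (edgeR adjusted p = 0.00252), and the call held in all 16 omissions. Heyl averaged 478 ± 34.9 CPM in C57BL/6J control and 353 ± 47.1 CPM in 129S6/SvEvTac control, a log2 fold change of 0.44 ± 0.13 at the edge of the threshold (edgeR adjusted p = 0.049). The Heyl groups did not overlap, but the call held in 3 of 16 omissions, those of C57BL/6J AngII replicates 2, 3 and 5, and was lost in the other 13 (adjusted p 0.053 to 0.157). The other 8 genes did not pass. The largest of their log2 fold changes was 0.84 ± 0.36 for Notch4 (edgeR adjusted p = 0.172), which averaged 16.97 ± 4.67 CPM in C57BL/6J control and 9.48 ± 3.85 CPM in 129S6/SvEvTac control. The others were 0.32 for Hes1, 0.29 for Hey1, 0.18 for Notch3 and 0.16 for Notch1, and -0.13 for Dll4, -0.16 for Hey2 and -0.20 for Jag1 (edgeR adjusted p 0.395 to 0.854).

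With AngII the strains differed in 4 of the 10 genes, 1 higher in C57BL/6J, Dll4, and 3 lower, Notch3, Hey2 and Heyl, where 16.8% of all genes were higher and 14.6% lower. The median log2 fold change was -0.09 over the 10 genes and 0.02 over all genes. Heyl averaged 143.8 ± 25.9 CPM in C57BL/6J AngII and 304 ± 38.2 CPM in 129S6/SvEvTac AngII (SD, n = 4 each), 2.12-fold lower without overlap (edgeR adjusted p = 3.09e-05), while in controls the C57BL/6J mean had been the higher of the pair. Dll4 averaged 7.80 ± 1.87 CPM in C57BL/6J AngII and 3.10 ± 1.13 CPM in 129S6/SvEvTac AngII, 2.51-fold higher without overlap (edgeR adjusted p = 0.00184). Notch3 averaged 49.4 ± 12.5 CPM in C57BL/6J AngII and 74.6 ± 12.5 CPM in 129S6/SvEvTac AngII, with some overlap (log2 fold change -0.59 ± 0.15; edgeR adjusted p = 0.00758). These 3 calls held in all 16 omissions, though Notch3 did not pass when only these 2 groups were fitted (edgeR adjusted p = 0.0583). Hey2 averaged 38.4 ± 14.6 CPM in C57BL/6J AngII and 57.5 ± 5.98 CPM in 129S6/SvEvTac AngII (log2 fold change -0.58 ± 0.19; edgeR adjusted p = 0.0298). That call was lost, at adjusted p of 0.0592 to 0.0917, without any 1 of C57BL/6J AngII replicates 1, 2 or 5 or 129S6/SvEvTac AngII replicates 2 or 5. Jag1 averaged 64.8 ± 10.9 CPM in C57BL/6J AngII and 51.7 ± 6.46 CPM in 129S6/SvEvTac AngII and did not pass (edgeR adjusted p = 0.0623). Jag1 did pass without C57BL/6J AngII replicate 2 or 129S6/SvEvTac control replicate 1 (adjusted p 0.0171 to 0.0467). The log2 fold change of Notch4 was 0.42 ± 0.35 (edgeR adjusted p = 0.403), and 0.94 without 129S6/SvEvTac AngII replicate 2 (adjusted p = 0.0304). Those of Notch2 (0.15 ± 0.09), Notch1 (0.04 ± 0.21), Hes1 (-0.22 ± 0.27) and Hey1 (-0.24 ± 0.21) did not pass (edgeR adjusted p 0.256 to 0.927). All comparisons that share a group share its libraries.

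The members that fell in C57BL/6J moved beside smooth muscle markers, whose median log2 fold change was -1.08 in C57BL/6J AngII, 0.0047 in 129S6/SvEvTac AngII and -1.32 for the difference, with 11 of 12 markers lower in the C57BL/6J effect and in the difference. The 11 in the C57BL/6J effect held in all 16 omissions. In the difference 7 to 11 were lower over the omissions, 7 without 129S6/SvEvTac AngII replicate 4, and 9 with both libraries left out; Synpo2 was kept in 2, Mylk in 4, Myh11 in 7 and Smtn in 15 of 16. Per 1000 summed smooth muscle marker CPM, Heyl stood at 10.02, 6.03, 5.04 and 8.40 CPM in C57BL/6J AngII, against 11.3, 10.01, 11.02 and 10.4 CPM in C57BL/6J control. Replicate 1 of the AngII group thus reached the lowest control, and the other 3 stayed below all controls. The same ratio for Heyl was 5.59 to 8.54 in 129S6/SvEvTac AngII and 6.15 to 8.86 in 129S6/SvEvTac control. Hey2 had 1.72 to 1.94 CPM per 1000 marker CPM in C57BL/6J AngII and 1.39 to 1.79 in C57BL/6J control, so the ratio was not lower with AngII in that strain, and 1.03 to 1.52 in 129S6/SvEvTac AngII and 1.61 to 1.94 in 129S6/SvEvTac control, without overlap. Notch3 had 1.33 to 4.04 in C57BL/6J AngII, 1.66 to 2.00 in C57BL/6J control, 1.36 to 2.01 in 129S6/SvEvTac AngII and 1.51 to 1.72 in 129S6/SvEvTac control, overlapping throughout. Notch2 had 5.37 to 9.88 in C57BL/6J AngII and 4.42 to 5.58 in C57BL/6J control, and 2.68 to 3.73 in 129S6/SvEvTac AngII and 3.19 to 3.95 in 129S6/SvEvTac control. These ratios were chosen after the values were seen and carry no test, and the part of the marker change in the gene changes was not tested.

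Beside Dll4, the 18 endothelial markers went both ways in C57BL/6J AngII, with 6 higher, 2 lower and a median log2 fold change of 0.05. Of all genes tested, 21.8% were higher and 17.1% lower. Per 1000 summed endothelial marker CPM, Dll4 stood at 5.85, 5.68, 2.97 and 4.45 CPM in C57BL/6J AngII, against 2.13, 1.78, 1.32 and 2.40 CPM in C57BL/6J control. The groups did not overlap on this scale, and the part of the marker changes in the Dll4 change was not tested. In 129S6/SvEvTac the same ratio was 0.892 to 2.09 with AngII and 1.93 to 3.15 in control. Notch4 stood at 11.41 to 19.6 per 1000 endothelial marker CPM in C57BL/6J AngII and 7.72 to 11.4 in C57BL/6J control. In 129S6/SvEvTac it stood at 6.50 to 9.44 with AngII and 4.44 to 8.49 in control. The Notch1 ratio was 26.3 to 31.1 in C57BL/6J AngII and 20.6 to 25.6 in C57BL/6J control. It was 18.9 to 25.5 in 129S6/SvEvTac AngII and 21.3 to 26.8 in 129S6/SvEvTac control. In C57BL/6J the ratios of Notch1 and, narrowly, Notch4 thus also did not overlap, although neither gene passed its test there. The divisor leans on 1 abundant marker. Pecam1 made up 515 to 658.2 CPM of the 1635 to 2066 CPM summed in C57BL/6J control. With AngII it made up 280.8 to 463.9 CPM of 1559 to 1805 CPM. A lower Pecam1 raises every ratio to this sum, and whether the groups stay apart without it was not tested. In C57BL/6J AngII Kdr, a receptor for vascular endothelial growth factor, rose 10.46-fold (edgeR adjusted p = 0.000864). It stood at 6.15 to 45.2 CPM in C57BL/6J AngII, against 0.704 to 5.56 CPM in C57BL/6J control. Robo4, a Roundabout receptor of endothelium, rose 12.9-fold, and both calls were kept in all 16 omissions. Flt1 and Gpihbp1 were also higher in all 16, Eng in 10 and Cdh5 in 5, and Egfl7 was lower in 11. Pecam1 was not called, although its AngII libraries, at 280.8 to 463.9 CPM, all lay below the controls, at 515 to 658.2 CPM. Of 4 lymphatic endothelial markers 3 were higher. Sox17, an arterial endothelial transcription factor, fell by 0.84 ± 0.31 on the log2 scale (edgeR adjusted p = 0.0404). The Sox17 groups overlapped and its call was kept in 8 of 16 omissions. It was lost (adjusted p up to 0.123) without any 1 of C57BL/6J AngII replicates 1, 2 and 3, C57BL/6J control replicates 1, 2 and 5, 129S6/SvEvTac AngII replicate 1 and 129S6/SvEvTac control replicate 2.

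**Figure D3:**
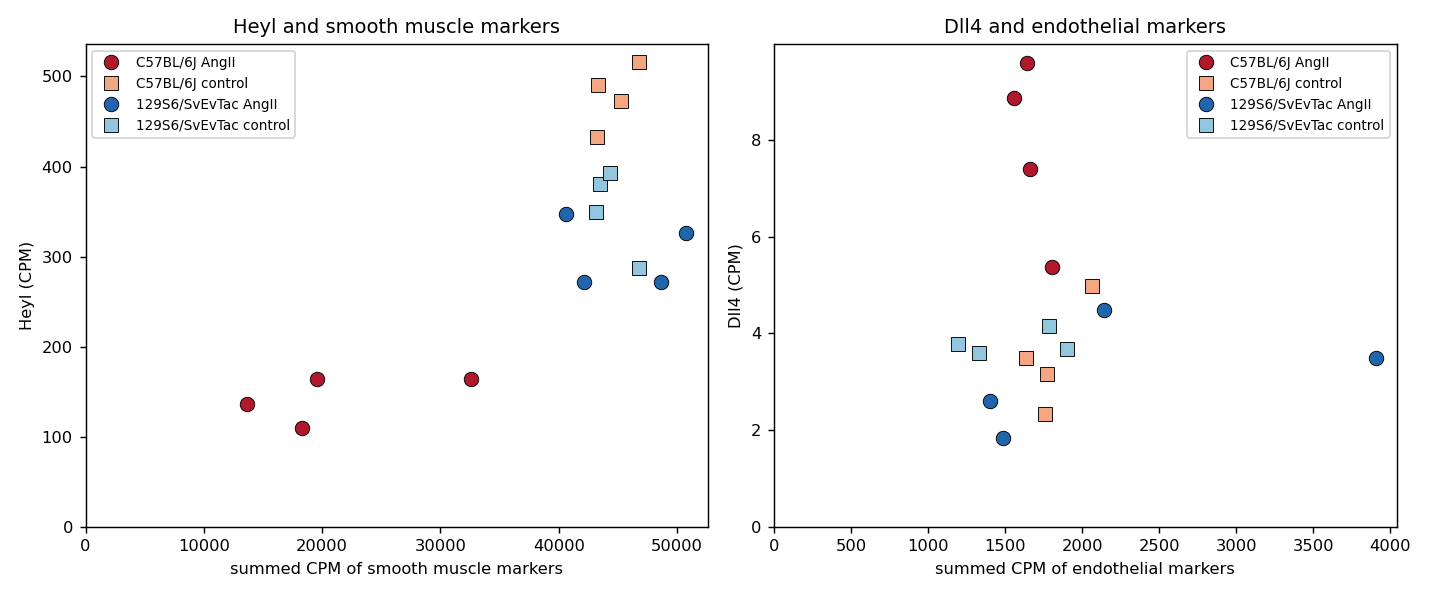
CPM of Heyl against the summed CPM of 12 smooth muscle markers (left), and CPM of Dll4 against the summed CPM of 18 endothelial markers (right), 1 point per library, with linear axes from 0. The C57BL/6J AngII libraries lie at 13630 to 32570 CPM of smooth muscle markers and 110.2 to 164 CPM of Heyl, and at 1559 to 1805 CPM of endothelial markers and 5.36 to 9.59 CPM of Dll4.

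For each of the 7 genes called in some comparison, the gene with the most similar pattern over the 16 samples was found among 10547 named genes averaging 5 CPM or more, by the smallest root-mean-square difference of centred log2 CPM. For Heyl it was Lmod1, leiomodin, a smooth muscle marker, with a difference of 0.22 where Heyl itself varied by 0.67 about its mean. Close behind came St5 (0.23) and Bcl7a (0.24), neither of them on the smooth muscle list. Lmod1 averaged 542 ± 183.6 CPM in C57BL/6J AngII and 1500 ± 25.8 CPM in C57BL/6J control, and 1150 ± 71.4 CPM in 129S6/SvEvTac AngII and 1135 ± 51.4 CPM in 129S6/SvEvTac control (SD, n = 4 each). For Dll4 it was Bcl6b, a transcriptional repressor (0.25 against a variation of 0.63), which rose by 1.21 ± 0.25 in C57BL/6J AngII (edgeR adjusted p = 0.00123) and had -0.66 ± 0.24 in 129S6/SvEvTac AngII (edgeR adjusted p = 0.0972). For Notch2 it was Mtss1 (0.11 against 0.26), for Notch3 Mmaa (0.16 against 0.35), for Jag1 Amot (0.12 against 0.27), for Hes1 Id3 (0.34 against 0.60) and for Hey2 Smim14 (0.12 against 0.49). No member was among the 3 genes most like another member.

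Of 69 other genes of the pathway, 63 could be tested; Dll3, Dlk2, Hes2, Hes3, Hes5 and Hes7 were too low, and Hes5 had no count in any library. In C57BL/6J AngII 11 were higher and 10 lower (17.5% and 15.9% of the 63, median log2 fold change -0.01), near the 21.8% and 17.1% of all genes. In 129S6/SvEvTac AngII 5 were higher (7.94%, against 7.71% of all genes) and none lower (4.47% of all genes; median 0.07). Without 129S6/SvEvTac control replicate 2 the count higher in this strain was 1, it was 2 without any 1 of 129S6/SvEvTac AngII replicates 1 or 2 or control replicates 1 or 4, and it was 3 without 129S6/SvEvTac AngII replicate 4 or C57BL/6J control replicates 1 or 3. The AngII effects differed for 3, with Myc and Dtx2 higher (3.17% of the 63, against 5.34% of all genes) and Rfng lower (1.59%, against 4.62%) in C57BL/6J; 4 were higher without C57BL/6J AngII replicate 3 or 129S6/SvEvTac AngII replicate 2. With both libraries left out that stood apart in adipocyte and muscle markers, these counts were 12 higher and 8 lower, 3 higher and 1 lower, and 3 higher and none lower.

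Of the 10 proteases that cut the receptor, 5 were higher (50.0%) and none lower in C57BL/6J AngII. Of all genes tested, 21.8% were higher and 17.1% lower. Adam10, the protease of the first cut after ligand binding, averaged 131 ± 6.36 CPM in C57BL/6J AngII and 75.9 ± 4.87 CPM in C57BL/6J control (SD, n = 4 each), a log2 fold change of 0.79 ± 0.13 (edgeR adjusted p = 0.000177). Ncstn, nicastrin of the gamma-secretase complex, averaged 123 ± 11.6 CPM in C57BL/6J AngII and 79.9 ± 3.46 CPM in C57BL/6J control (0.62 ± 0.08; edgeR adjusted p = 4.06e-05). Adam17, which can also cut the receptor, Furin, which cleaves it during maturation, and the gamma-secretase subunit Aph1a rose by 0.49, 0.39 and 0.33 on the log2 scale. These 5 calls held in all 16 omissions. In 129S6/SvEvTac AngII 2 of the 10 proteases were higher, Furin (0.34) and Ncstn (0.30), each lost in several omissions (8 and 7 of 16 kept the call), and no protease passed the test of the difference between strains.

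Among the 5 glycosyltransferases, Lfng, a Fringe enzyme that changes which ligands a receptor answers to, averaged 20.2 ± 3.04 CPM in C57BL/6J AngII and 8.82 ± 0.806 CPM in C57BL/6J control, 2.28-fold higher (edgeR adjusted p = 0.00275). Its relative Rfng was lower by 0.24 on the log2 scale, a call kept in 6 of 16 omissions, and its difference between strains (-0.43; edgeR adjusted p = 0.0438) was kept in 3 of 16. In the nuclear complex 2 of 9 genes were lower in C57BL/6J AngII (22.2%, near the 17.1% of all genes) and none higher. Maml2, a Mastermind coactivator, fell by 0.65 ± 0.13 to a mean of 78.0 ± 19.5 CPM in C57BL/6J AngII, against 122.8 ± 9.08 CPM in C57BL/6J control (edgeR adjusted p = 0.00102), and Snw1, a cofactor of RBPJ, fell by 0.24. Of 13 co-repressors L3mbtl3 rose by 0.49, and Tle2 (-0.99), a Groucho co-repressor, and Ncor1 (-0.23) fell. The co-repressors were thus 7.69% higher and 15.4% lower, where 21.8% and 17.1% of all genes were. Of 14 genes of ligand endocytosis and receptor turnover, Neurl1b, a ubiquitin ligase that acts on ligands, rose 5.80-fold from low levels, at 11.9, 19.3, 4.93 and 11.8 CPM in C57BL/6J AngII, against 2.01, 2.201, 2.57 and 1.47 CPM in C57BL/6J control (edgeR adjusted p = 0.00161). Dtx2 also rose (0.60), and Mib2, Dtx1 and Dtx3 fell by 0.53, 0.88 and 0.63, with the Dtx1 call kept in 13 and the Dtx3 call in 12 of 16 omissions. Of these 14 genes 14.3% were higher and 21.4% lower, where 21.8% and 17.1% of all genes were.

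Of 9 tested target genes outside the 10, Myc, a growth regulator with many other inputs, rose 8.55-fold to a mean of 21.2 ± 7.81 CPM in C57BL/6J AngII, against 2.48 ± 0.442 CPM in C57BL/6J control (edgeR adjusted p = 2.69e-06), and its AngII effects differed by 2.37 ± 0.39 between the strains (edgeR adjusted p = 0.00289). Ccnd1, cyclin D1, was higher with AngII in both strains, 2.06-fold in C57BL/6J and 2.21-fold in 129S6/SvEvTac (edgeR adjusted p = 0.00211 and 0.00494). Gata2 and Hes6 were lower in C57BL/6J AngII, by 0.84 and 0.46 on the log2 scale. Of the 9 targets 22.2% were higher and 22.2% lower in C57BL/6J AngII, where 21.8% and 17.1% of all genes were. In 129S6/SvEvTac AngII 33.3% were higher and none lower, where 7.71% and 4.47% of all genes were. Nrarp, a target that dampens the pathway, was called in 129S6/SvEvTac (1.16 ± 0.33; edgeR adjusted p = 0.0308), at 12.2, 38.7, 10.1 and 16.99 CPM in 129S6/SvEvTac AngII, against 9.70, 8.96, 8.84 and 7.28 CPM in 129S6/SvEvTac control. The replicate at 38.7 CPM was again the one with the most endothelial marker counts, and the call was lost without it or without any of 5 other libraries of this strain (AngII replicate 5 and control replicates 1, 2, 3 and 4; adjusted p up to 0.111). Id1, a helix-loop-helix inhibitor with other known inputs, was called in 129S6/SvEvTac AngII (0.76; edgeR adjusted p = 0.0318) and kept in 10 of 16 omissions.

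**Figure D4:**
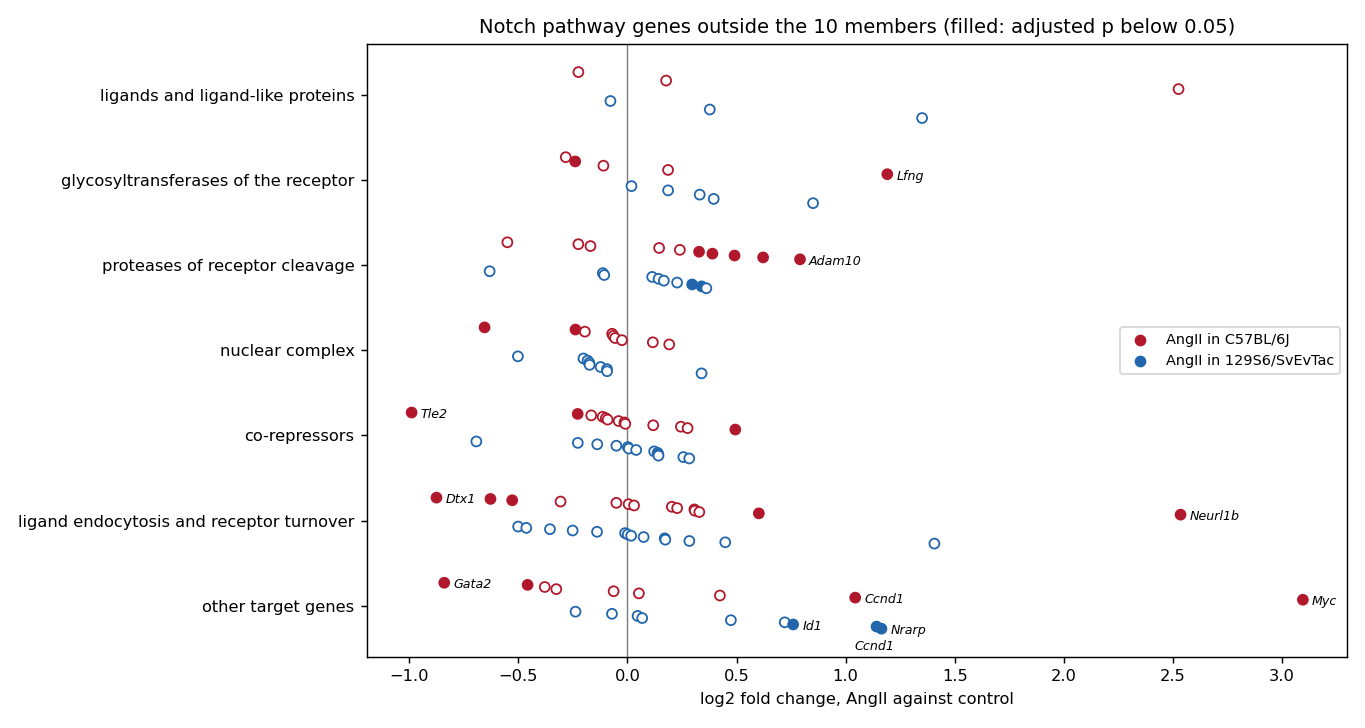
Log2 fold change with AngII of the 63 tested pathway genes outside the 10, by role, in C57BL/6J (red, upper row of each role) and 129S6/SvEvTac (blue, lower row); filled points passed edgeR's test at adjusted p below 0.05. The 10 proteases have 5 filled points in C57BL/6J, all above 0, where 21.8% of all genes were higher. Myc lies farthest right at 3.10.

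Between the strains, 8 of the 63 genes were higher and 2 lower in C57BL/6J controls (12.7% and 3.17%, where 5.35% and 5.06% of all genes were). The count higher was 4 without 129S6/SvEvTac control replicate 4 and 5 without 129S6/SvEvTac control replicate 2 or C57BL/6J control replicates 1 or 2. In C57BL/6J AngII 12 were higher and 6 lower than in 129S6/SvEvTac AngII (19.0% and 9.52%, where 16.8% and 14.6% of all genes were), with 2 lower when both libraries were left out and 3 lower without any 1 of C57BL/6J AngII replicate 1 or 129S6/SvEvTac AngII replicates 4 or 5. Efnb2, ephrin B2, an arterial marker, was higher in C57BL/6J controls by 0.94 ± 0.15 (edgeR adjusted p = 0.000569). Tle1 was lower in C57BL/6J, averaging 36.1 ± 7.18 CPM in C57BL/6J AngII and 78.9 ± 12.5 CPM in 129S6/SvEvTac AngII, and 38.5 ± 4.28 CPM in C57BL/6J control and 72.4 ± 14.99 CPM in 129S6/SvEvTac control (SD, n = 4 each; edgeR adjusted p = 0.000141 and 0.00176). Rbpj, the DNA-binding factor of the pathway, was higher in C57BL/6J, at 127 ± 22.7 CPM in C57BL/6J AngII and 58.2 ± 2.85 CPM in 129S6/SvEvTac AngII, and 129.6 ± 9.26 CPM in C57BL/6J control and 63.3 ± 3.05 CPM in 129S6/SvEvTac control. The Rbpj difference is uncertain: its pseudogene Rbpj-ps3 (chr6:46529354-46530794) had 0 to 0.382 CPM in the 8 C57BL/6J libraries and 16.4 to 21.8 CPM in the 8 129S6/SvEvTac libraries, and reads may be divided between such copies. Summed over both genes the level was 106.6 to 157 CPM in C57BL/6J and 71.6 to 88.5 CPM in 129S6/SvEvTac, still without overlap.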

How the data were processed

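Total RNA of whole descending thoracic aorta was sequenced in 16 samples. Per the labels' protocols, the authors aligned reads to GRCm38 (mm10) with HISAT2 and estimated abundance with StringTie against Gencode, and they deposited expected counts for each gene, which needed no rounding because all were whole numbers. DESeq2 1.26.0 and R 3.6.2 appear in the submitters' processing notes, with no role. The sources used here do not give the step from StringTie to counts, the Gencode release or the strandedness, so overlapping, antisense and near-identical genes are uncertain. GENCODE M21 on GRCm38 named 52489 of the 52636 genes, 49121 with the same ID version; the other 147 held 0.033 to 0.0431% of each library. No pair of replicates was identical: chi-square per degree of freedom was at least 40.92 for every pair.

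Counts were tested with edgeR 4.0.16 (R 4.3.3): filterByExpr with a minimum count of 10 (17125 genes), TMM factors, a robust quasi-likelihood fit with 1 mean per group over 16 libraries, and Benjamini-Hochberg adjustment over all genes, with a threshold of 0.05. CPM are counts over the TMM-adjusted total; levels per kilobase use the union of exons. Log2 CPM used a prior count of 2. The SE of a log2 fold change was worked back from the edgeR test, as its absolute value over the square root of the F statistic. The pipeline was tested on simulated data with 200 changed genes. Alternatives were library size only or RLE scaling, a filter of 1 CPM in 4 samples or none, DESeq2 1.42.0, only the groups compared, a replicate block, 2 libraries left out together and each library left out. The labels give no sequencing batch.

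The 10 members, the lists and the left-out pair of libraries were chosen with earlier results of these data known, as were the ratios to markers, which were chosen after the values were seen. All 10 members are named in every comparison, other pathway genes were eligible for naming when called, and 3 genes of similar pattern were sought per called member.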

Additional observations from a re-analysis of the deposited data

Results flagged for a closer look

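The AngII effects of 3 genes differed between the strains by the interaction test of edgeR, C57BL/6J minus 129S6/SvEvTac: Heyl by -1.52, Dll4 by 1.45 and Notch3 by -0.78 on the log2 scale. The adjusted p-values were 0.000795, 0.0282 and 0.033. The Heyl difference was called in 16 of 16 omissions of a library, the Dll4 difference in 9 and the Notch3 difference in 5. Between groups, summed smooth muscle markers moved with the Heyl and Notch3 differences, at 13630 to 32570 CPM in C57BL/6J AngII against 43240 to 46800 CPM in C57BL/6J control. Within C57BL/6J AngII Notch3 did not follow them. It was at 55.1 CPM in replicate 1, which had the lowest sum, and 43.3 CPM in replicate 3, which had the highest. The part of the markers in the differences was not tested.

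In C57BL/6J AngII, Hey1 stood at 6.23 CPM in replicate 5, apart from the 3.96 to 4.28 CPM of the other 3 libraries. It was the only flag among 40 sets of 4 libraries examined (10 genes in 4 groups), and chance flags about 1 in 20 such sets.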

How the results depend on the processing

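The members called numbered 5 (AngII in C57BL/6J), 2 (AngII in 129S6/SvEvTac), 3 (difference of effects), 2 (strains in controls) and 4 (strains with AngII). In controls the count was 1 with RLE scaling, library size only, no filter, the replicate block, and the 2 libraries left out together, since Heyl was lost; with AngII it was 2 when only the groups compared were fitted. Leaving out 1 library gave 1 to 4 calls for the difference and 1 to 2 for controls; the fit pools the spread over the remaining 15 libraries. Over 1190 alternative values of single genes, 1114 kept direction and side of the threshold, 46 lost a call, 17 gained one and 13 changed sign, none of the 13 called in the fit reported. Outside single omissions the calls gained were Hey2 in 129S6/SvEvTac with library size only (-0.62, adjusted p = 0.0312) and only the groups compared (-0.47, 0.0156), Notch4 with DESeq2 in 129S6/SvEvTac (1.03, 0.0281) and with only the groups compared in C57BL/6J (0.60, 0.0496), and Jag1 with DESeq2 in the difference (0.54, 0.0408), and between strains with AngII by DESeq2 (0.34, 0.0458) and library size only (0.39, 0.0312). The values that changed sign were Notch3 in 129S6/SvEvTac (-0.11) with library size only and Notch1 between strains with AngII (-0.089) with the replicate block. Over single omissions, log2 fold changes ran from -0.17 to 0.028 for Jag1 and -0.30 to 0.0076 for Hey1 with AngII in C57BL/6J, -0.072 to 0.43 for Notch1 and -0.041 to 0.12 for Notch3 with AngII in 129S6/SvEvTac, -0.32 to 0.20 for Notch1 and -0.71 to 0.096 for Notch4 in the difference, -0.35 to 0.024 for Dll4 in controls, and -0.084 to 0.36 for Notch1 with AngII.

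Over all genes the calls for the difference (1706) were 2685 with DESeq2, 1049 without the 2 libraries, 2990 without C57BL/6J AngII replicate 3, 1076 without 129S6/SvEvTac AngII replicate 4 and 1039 without 129S6/SvEvTac control replicate 2, and those between controls (1783) were 2772 with only the groups compared. Library size only lowered the all-gene median with AngII in 129S6/SvEvTac by 0.16 on the log2 scale and gave 25.2% of calls as higher (63.3% with TMM), with 45.4% (56.1%) in C57BL/6J and 65.2% (53.6%) for the difference. The sources used here do not say what the replicate numbers stand for. Deviations of same-numbered libraries of a strain correlated at -0.06 to 0.145, so little likeness was seen, but shared handling was not tested. The replicate block gave 5, 2, 2, 1 and 4 calls in the order above, without Notch3 in the difference (edgeR adjusted p = 0.0693) and Heyl in controls (0.137). Dll4 at 1.84 to 9.59 CPM and Hey1 at 3.15 to 6.23 CPM rest on the fewest counts of the 10 genes.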
